A study of Mus musculus with 4 samples.

Results

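Spleen T cells carrying transcripts of Cxcr6, the receptor of the chemokine CXCL16, were described in mice bearing the tumour model named BeCon in the labels. The cells were chosen by their own transcripts: a spleen cell was taken as a Cxcr6 T cell when it held at least 1 molecule (UMI) of Cxcr6 and at least 1 UMI summed over Cd3d, Cd3e and Cd3g, with 0 UMIs of Foxp3, which marks regulatory T cells, and 0 UMIs of the B cell gene Cd79a. This rule found 198 cells among 867 spleen T cells, 4163 usable spleen cells and 13160 usable cells of the series. The other 669 spleen T cells had 0 Cxcr6 UMIs and are called Cxcr6-negative. The animals were B6 mice, all bearing BeCon, given either the salt-inducible kinase (SIK) inhibitor YKL-05-099 (treated mice 2, 3 and 4) or its vehicle (vehicle mice 1, 2 and 3), and their spleen cells were sorted as viable CD45+ MHCI+ immune cells. Dose, length of treatment and age are not given in the sources used here. Spleen and blood cells of these mice shared 1 droplet library and were told apart by hashtags, DNA-barcoded antibodies that mark the cells of 1 mouse and tissue; ascites cells formed a second library. Mouse 2 and mouse 3 of the treated arm are other animals than mouse 2 and mouse 3 of the vehicle arm.

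CXCR6 is found on T cells with effector, memory or innate-like properties, and is low on naive T cells, which instead use CCR7 and other homing receptors to recirculate through lymphoid organs. In mouse liver, natural killer T cells, tissue-resident memory CD8 T cells and other innate-like T cells carry it and patrol or stay in the tissue. SIK kinases restrain the CRTC coactivators of CREB and the class IIa histone deacetylases, so SIK inhibition can raise CREB targets such as Crem. The Cxcr6 gene lies on the + strand of mouse chromosome 9, bases 123806475 to 123811760 of mm10.

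The oligonucleotides that assigned each cell to a mouse are shown because every comparison below rests on them; capitals are not used, since the whole sequence is the tag.
treated mouse 2: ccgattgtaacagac
treated mouse 3: gcttaccgaattaac
treated mouse 4: ctgcaaatataacgg
vehicle mouse 1: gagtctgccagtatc
vehicle mouse 2: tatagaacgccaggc
vehicle mouse 3: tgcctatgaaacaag

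The spleen and blood library held 14792 barcodes and 92064806 gene UMIs, of which 11513 barcodes passed the quality limits and 6741 also had a clear hashtag. The 2 libraries shared 52 barcode sequences among all their deposited barcodes, and 0 Cxcr6 T cells carried one of these. Summed over its Cxcr6 T cells, a treated mouse gave 219041 to 296322 UMIs and a vehicle mouse 209286 to 274595 UMIs. The median was 6807.5 UMIs in a Cxcr6 T cell and 5983 UMIs in a Cxcr6-negative T cell. Doublets within a mouse cannot be seen by hashtags and were not removed.

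T cell genes that the rule did not use are given beside the T cell label. All 12 genes of a T cell list other than Cd3d, Cd3e and Cd3g were detected in Cxcr6 T cells. Their summed level was 3456 to 4080.3 CPM in treated mice and 3584 to 3975 CPM in vehicle mice. CPM are UMIs of a gene per 1000000 UMIs of the summed cells. In Cxcr6-negative T cells the level was 2699 to 4451 CPM in treated mice and 2334 to 3160 CPM in vehicle mice. Detection alone does not set T cells apart, since all 10 genes of a B cell list were detected in Cxcr6 T cells too. Those 10 summed to 1279 to 1483 CPM in treated mice and 1410 to 1511 CPM in vehicle mice. Of CD3 itself, which chose the cells, at least 5 UMIs were found in 193 of 198 Cxcr6 T cells, against 528 of 669 Cxcr6-negative T cells, and exactly 1 CD3 UMI in 3 and 88 cells. More than 1% of UMIs from 12 genes of neutrophils, red cells, B cells and antigen-presenting cells were found in 3 Cxcr6 T cells and 67 Cxcr6-negative T cells. At least 1 UMI of a set of 9 B cell and myeloid genes was found in 197 of 198 Cxcr6 T cells. The planned choice of cells without such UMIs therefore gives no result here. A Cxcr6 T cell of vehicle mouse 3 held 7042 UMIs of the neutrophil genes S100a8 and S100a9 among its 20028 UMIs, with 1 CD3 UMI, and a cell of treated mouse 3 held 635 such UMIs among 6651. The 10 myeloid markers thus summed to 665 to 3611 CPM in the Cxcr6 T cells of treated mice and to 699 to 37217 CPM in those of vehicle mice. Of 6 plasma cell genes 1, Sdc1, and of 7 red cell and platelet genes 1, Ppbp, was at 0 in Cxcr6 T cells. Ppbp was at 0 in Cxcr6-negative T cells too. The 6 plasma cell genes summed to 114 to 153 CPM in Cxcr6 T cells of treated mice and 80.9 to 172 CPM in vehicle mice. In Cxcr6-negative T cells they summed to 121 to 141 CPM in treated mice and 105 to 132 CPM in vehicle mice. Results are therefore also given for purer T cells, meaning cells of either class with at least 5 CD3 UMIs and at most 1% of UMIs from those 12 genes, a definition made after these cells were seen.

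Cxcr6 UMIs were rare in cells that should lack the gene. B cells with at least 5 Cd79a UMIs and no CD3 UMI held a Cxcr6 UMI in 14 of 1542 cells (0.908%, exact 95% interval 0.497 to 1.52%, counting error only) at a median of 7209 UMIs, against 22.8% of spleen T cells. Of the 198 members, 88 had exactly 1 Cxcr6 UMI, 47 had exactly 2 and 25 had at least 5. Just outside the rule lay 152 Cxcr6+ CD3+ Foxp3-negative cells left out for a Cd79a UMI, 108 of them with exactly 1, besides 25 Cxcr6+ cells without a CD3 UMI and 1 with a Foxp3 UMI. A Cd79a UMI was present in 461 of 1182 cells (39.0%) with at least 5 CD3 UMIs and no Foxp3 UMI, and Cxcr6 was detected in 26.8% of the 721 such cells without Cd79a and in 30.8% of the 461 with it. The Cd79a limit thus removed many cells in which Cxcr6 was detected about as often as in those it kept.

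The share of Cxcr6 T cells among spleen T cells did not differ between the arms beyond the spread of the mice at full depth. They were 28.6% (34 of 119), 24.6% (33 of 134) and 24.7% (38 of 154) of T cells in treated mice 2, 3 and 4, against 18.5% (32 of 173), 25.4% (36 of 142) and 17.2% (25 of 145) in vehicle mice 1, 2 and 3. The arms overlapped through vehicle mouse 2. Means were 26.0 ± 2.26% in treated mice and 20.4 ± 4.37% in vehicle mice (SD, n = 3 each), with exact two-sided permutation p = 0.3, where 3 against 3 mice cannot go below 0.1. Detection of 1 UMI depends on depth, so each cell was also thinned to 2000 UMIs before the rule was applied. Thinning also removes Cd79a and Foxp3 UMIs, so cells that the rule leaves out at full depth can enter. It gave 167, 171 and 189 T cells in treated mice 2, 3 and 4, and 214, 166 and 179 in vehicle mice 1, 2 and 3. The thinned shares are thus of a larger set of T cells. The shares were then 11.4, 15.2 and 15.9% in treated mice 2, 3 and 4, against 10.3, 9.04 and 7.26% in vehicle mice 1, 2 and 3, without overlap and at the smallest p of the exact permutation test, 0.1. As a share of all usable spleen cells, Cxcr6 T cells averaged 4.47 ± 0.209% in treated mice and 5.13 ± 0.998% in vehicle mice (SD, n = 3 each; exact permutation p = 0.4). Over the 6 shares compared between the arms here and below, the smallest Benjamini-Hochberg adjusted p was 0.45.

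Spleen held more Cxcr6 T cells among its T cells than blood did in each of the 6 mice. The share averaged 23.2 ± 4.37% in spleen and 10.4 ± 5.47% in blood (SD, n = 6), a difference of 12.7 percentage points with exact paired permutation p = 0.03125, the smallest that 6 pairs allow; hashtags with the same arm and number were taken as the same animal. After thinning, in the larger set of T cells that it lets in, the means were 11.5% in spleen and 5.16% in blood. The exact permutation p was again 0.03125. Blood gave 34 Cxcr6 T cells in all, 29 of them CD8 cells and 3 with neither Cd4 nor Cd8 transcripts, against 59 and 99 of the 198 spleen cells. The ascites library gave 120 Cxcr6 T cells by the same rule; library and tissue cannot be told apart there.

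**Figure D1:**
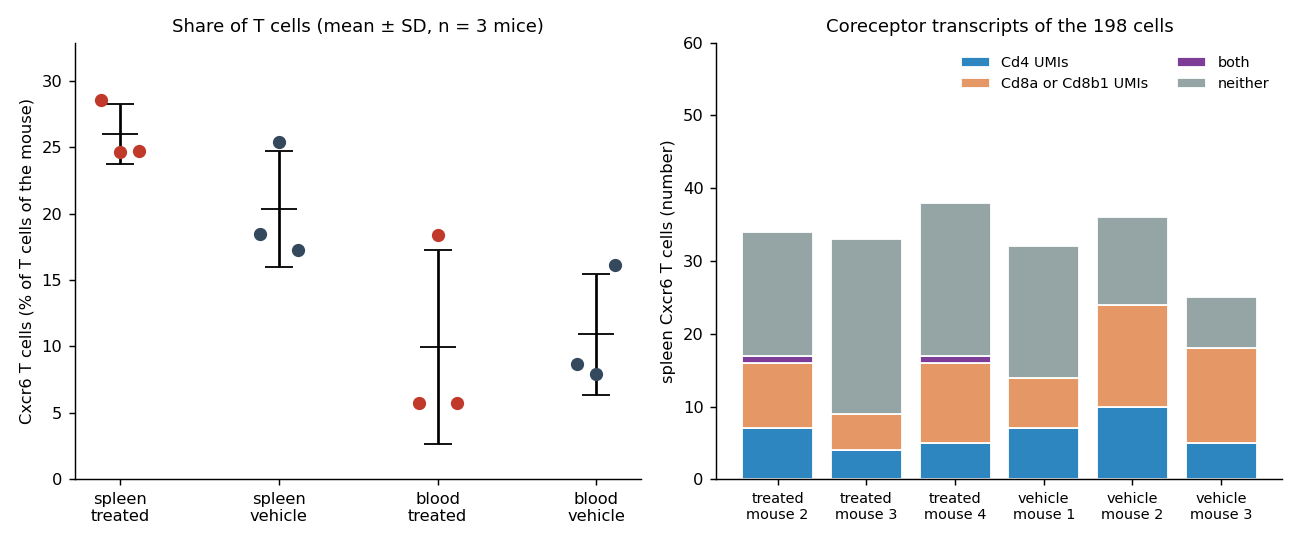
Left, Cxcr6 T cells as percent of the T cells of a mouse in spleen and blood, treated left of vehicle, with 1 point per mouse and the mean ± SD (n = 3); right, stacked numbers of spleen Cxcr6 T cells with Cd4, Cd8, both or neither transcripts in each mouse. Spleen shares lie between 24.6 and 28.6% in treated mice and between 17.2 and 25.4% in vehicle mice, and neither cells number 7 to 24 per mouse.

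Most often, Cxcr6 T cells had no UMI of either coreceptor. Of the 198 cells, 38 (19.2%) held Cd4 UMIs without Cd8a or Cd8b1, 59 (29.8%) held Cd8a or Cd8b1 UMIs without Cd4, 2 held both and 99 held neither. Among Cxcr6-negative T cells these were 98 (14.6%), 290 (43.3%), 15 and 266 (39.8%). Neither cells averaged 49.3% of Cxcr6 T cells and 40.1% of Cxcr6-negative T cells over 6 mice, with an exact paired permutation p of 0.25. After thinning, in the larger set of T cells that it lets in, they averaged 71.8% and 55.6%, with exact permutation p = 0.0625. Absence of a UMI is not absence of the receptor: median depth was 6657 UMIs in CD4 cells, 7504 UMIs in CD8 cells and 6507 UMIs in neither cells. A Cd4 UMI was found in 1.17% and a Cd8a or Cd8b1 UMI in 6.87% of the B cells used as background.

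Transcripts of Trdc, the constant region of the T cell receptor delta chain, and of Zbtb16, which encodes the innate-like T cell factor PLZF, were each found in few Cxcr6 T cells. Trdc was detected in 16 Cxcr6 T cells (8.08%), against 62 Cxcr6-negative T cells (9.27%), and Zbtb16 in 26 (13.1%), against 16 (2.39%). The background in B cells was 0.843% for Trdc and 0.324% for Zbtb16. Both were held by 0 of 198 Cxcr6 T cells (exact 95% interval 0 to 1.85%, counting error only). With so few cells of each, this does not show that they mark separate cells. Of the 16 Trdc cells, 2 were CD4, 3 CD8 and 11 neither; of the 26 Zbtb16 cells, 6 were CD4, 3 CD8 and 17 neither. In every mouse the Zbtb16 share was higher in Cxcr6 T cells (5.88 to 21.2%) than in Cxcr6-negative T cells (1.67 to 3.53%).

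The subsets were unequal between mice of the same arm. CD4 cells numbered 7, 4 and 5 in treated mice 2, 3 and 4, against 7, 10 and 5 in vehicle mice 1, 2 and 3. CD8 cells numbered 9, 5 and 11 in those treated mice, against 7, 14 and 13 in the vehicle mice, and neither cells 17, 24 and 21, against 18, 12 and 7. The CD4 share averaged 15.3 ± 4.62% in treated mice and 23.2 ± 4.06% in vehicle mice (SD, n = 3 each; exact permutation p = 0.2). The CD8 share averaged 23.5 ± 7.36% in treated mice and 37.6 ± 15.1% in vehicle mice (SD, n = 3 each; exact permutation p = 0.3), and in Cxcr6-negative T cells 35.0 ± 3.45% and 50.2 ± 0.610%. Trdc cells were 9.58 ± 1.98% of Cxcr6 T cells in treated mice and 6.60 ± 1.26% in vehicle mice (SD, n = 3 each; exact permutation p = 0.2), and Zbtb16 cells 12.5 ± 7.86% and 13.5 ± 5.38% (exact permutation p = 0.9). No share passed 0.05 and none could, given the number of mice.

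Within each mouse, the transcriptome of Cxcr6 T cells was then set against that of its Cxcr6-negative T cells, with UMIs summed per mouse and class and tested in edgeR with the mouse as a block. Because a cell had to show Cxcr6 to enter 1 class and not to show it to enter the other, the comparison describes what goes with Cxcr6 detection and Cxcr6 itself is no finding. Of 5495 genes tested, 201 (3.66%) were higher and 213 (3.88%) lower in Cxcr6 T cells at an adjusted p under 0.05, 414 (7.53%) in all. In purer T cells, 201 (3.86%) of 5205 genes were higher and 238 (4.57%) lower, 144 and 85 of them shared with the first counts. Ribosomal protein genes made up 62 of these 238 lower calls, against 1 of the 213. The lower calls without that limit were in part genes of other cells: the macrophage genes Fn1 and Mpeg1, with log2 fold changes of -3.92 and -3.61, were no longer among the genes tested in purer T cells. Most NK cell markers moved the same way, with 5 of 7 tested members lower, among them Ncr1 (-3.24) and Eomes (-1.95), and 4 of 8 lower in purer T cells. At an unadjusted p under 0.05 in edgeR 5 of the 7 were lower and 1 higher, and by DESeq2 also 5 and 1.

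Genes of type 1 effector T cells were higher with Cxcr6. Of 12 tested members of that list 8 were higher and 0 lower, with a median log2 fold change of 1.09, against -0.0011 over all genes. Ifng, the type 1 cytokine, was at 52.6 to 166 CPM (median 112) in Cxcr6 T cells, against 12.8 to 40.8 CPM (median 28.6) in Cxcr6-negative T cells, so every mouse's Cxcr6 T value lay above every Cxcr6-negative value. The log2 fold change of Ifng was 1.89 ± 0.19 (SE), adjusted p = 6.36e-09. Cxcr3, a chemokine receptor of type 1 effector cells, was at 81.2 to 207 CPM (median 136) in Cxcr6 T cells, against 33.0 to 102 CPM (median 46.3) in Cxcr6-negative T cells, with a log2 fold change of 1.48 ± 0.17 (SE), adjusted p = 3.95e-08. Fasl, the death ligand, rose by 1.81 on the log2 scale, Tbx21, which encodes the type 1 factor T-bet, by 1.56, and the interleukin 12 receptor chain Il12rb2 by 2.18. The interleukin 18 receptor chain Il18rap (log2 fold change 1.11) and the interleukin 2 and 15 receptor chain Il2rb (1.06) were also higher. Of 13 tested cytotoxic genes 3 were higher, Nkg7 (0.60), Klrc1 (1.38) and Ctsw, and 2 lower, Ccl3 and Lyn. In purer T cells the 3 were again higher, Ccl3 was not among the genes tested, and Lyn did not pass (-0.33, adjusted p = 0.741). The protease gene Gzmb did not pass (0.29, adjusted p = 0.885).

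Of single transcription factors, Id2, Rora and Zbtb16 were higher and Tcf7 was lower. Id2, a partner of E proteins that is raised on effector and innate-like differentiation, was at 641 to 913 CPM (median 786) in Cxcr6 T cells, against 151 to 238 CPM (median 199) in Cxcr6-negative T cells, without overlap. Its log2 fold change was 1.96 ± 0.11 (SE), adjusted p = 6.59e-15, and 2.33 in purer T cells. Rora, needed for innate lymphoid and some helper T cells, was at 40.1 to 144 CPM (median 72.5) in Cxcr6 T cells, against 11.0 to 27.2 CPM (median 18.3) in Cxcr6-negative T cells (log2 fold change 1.96 ± 0.23 (SE), adjusted p = 6.18e-08). Zbtb16, counted above, had a log2 fold change of 2.37 ± 0.60 (SE), adjusted p = 0.00768, and was not called without treated mouse 4 (2.22, adjusted p = 0.0574). Tcf7, which encodes the naive and stem-like factor TCF-1, was at 73.0 to 143 CPM (median 129.7) in Cxcr6 T cells, against 149 to 236 CPM (median 195) in Cxcr6-negative T cells, a log2 fold change of -0.73 ± 0.14 (SE), adjusted p = 0.000656. Lef1, a related factor of naive T cells, did not pass (-0.42, adjusted p = 0.264). The innate-like list as a whole was divided, with 3 of 13 tested genes higher, Zbtb16, Cd160 (1.23) and Ifngr1 (0.57), and 3 lower, Fcer1g (-2.48), Tyrobp (-2.76) and Izumo1r (-1.16), at a median of -0.72. In the tissue residency list, 4 of 13 tested genes were higher, namely Hopx, Id2, Rora and the purine receptor P2rx7 (2.02), and 0 lower; in purer T cells 6 were higher. Cd69, an early activation and residency marker, and Itga1, the alpha chain of the collagen receptor CD49a, did not pass (log2 fold changes 0.02 and 1.16; adjusted p = 0.964 and 0.178).

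Ccr7, the chemokine receptor for entry into lymph nodes, was lower. It was at 36.4 to 73.0 CPM (median 46.2) in Cxcr6 T cells, against 49.9 to 94.8 CPM (median 76.7) in Cxcr6-negative T cells, so the ranges overlap, with a log2 fold change of -0.60 ± 0.19 (SE), adjusted p = 0.0435, and -1.03 in purer T cells. Klf2, a factor of naive T cell quiescence and recirculation, was at 465.7 to 607 CPM (median 495) in Cxcr6 T cells, against 579.5 to 754 CPM (median 626) in Cxcr6-negative T cells, again with overlap (-0.33 ± 0.09 (SE), adjusted p = 0.0203). Ccr7 was called without vehicle mouse 3 but in no other set of 5 mice (adjusted p = 0.0526 to 0.193), and Klf2 was not called without treated mouse 3 (-0.30, adjusted p = 0.0767) or vehicle mouse 1 (-0.25, adjusted p = 0.198). In cells with at most 5% mitochondrial UMIs neither Ccr7 (-0.17, adjusted p = 0.860) nor Klf2 (-0.38, adjusted p = 0.109) was called. Of 12 tested genes of the naive and recirculation list 4 were lower, Ccr7, Klf2, Tcf7 and Igfbp4, while Il7r (0.88) and the gut-homing receptor Ccr9 (1.45) were higher. In purer T cells 6 were lower, with S1pr1 and Dapl1 added. When the Cxcr6-negative cells were limited to those with Cd44 and without Ccr7, a choice made after the data were seen, 657 genes were called in all, 273 of the 414 among them. Neither Klf2 (log2 fold change -0.09, adjusted p = 0.743) nor Tcf7 (0.24, adjusted p = 0.553) was called lower there by edgeR, and Ccr7 is no result of that choice.

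Single genes led by size stood outside these lists. The largest increase among well expressed genes was that of Socs2, a cytokine-induced suppressor of JAK-STAT signalling, at 32.0 to 166 CPM (median 65.4) in Cxcr6 T cells, against 1.24 to 9.29 CPM (median 5.34) in Cxcr6-negative T cells. Its log2 fold change was 4.07 ± 0.31 (SE), adjusted p = 1.08e-12. Next came Podnl1 (2.20), Tmem106b (1.72), the activating receptor Cd226 (1.71), the adaptor Dok2 (1.57), Rcbtb2 (1.53) and Crot (1.48), a peroxisomal carnitine acyltransferase. Il4, the type 2 cytokine, had a log2 fold change of 4.03 ± 0.66 (SE), adjusted p = 3.14e-05, and rested on 42 UMIs in 28 of 198 Cxcr6 T cells and 7 UMIs in Cxcr6-negative T cells. Gata3, the type 2 factor, was higher as well (1.14), so both tested genes of the type 2 list passed. Of 5 tested gamma delta genes 4 were higher, Tcrg-C1 (1.48), Tcrg-C2 (1.26), Tcrg-C4 (1.33) and Trgv2 (1.40), and by DESeq2 2 were. Tcrg-C1 and Tcrg-C2 were not called without vehicle mouse 1 or vehicle mouse 2. A Trdc UMI was found in 8 of the 43 Cxcr6 T cells with Tcrg-C4 and 8 of the 43 with Trgv2. Reads of the near-identical gamma constant regions can be split between Tcrg-C1 and Tcrg-C2.

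Receptors for costimulation and restraint changed in both directions. Of 14 tested costimulatory genes 7 were higher, among them Il2ra (2.48), Cd40lg (1.70) and Cd226, and Tnfrsf4, which encodes OX40, was lower (-2.24). In the checkpoint list 0 of 9 tested genes were higher and 3 lower, Ctla4 (-1.75), Nr4a2 and Tnfsf8 (-2.14), at an unadjusted p under 0.05 0 higher and 4 lower, and by DESeq2 0 and 1; Pdcd1, which encodes PD-1, did not pass (-0.86, adjusted p = 0.609). Ctla4 was not called without treated mouse 2 (-1.38, adjusted p = 0.0825) or vehicle mouse 2 (-1.58, adjusted p = 0.111). The interleukin 6 receptor chains Il6ra (-1.68) and Il6st (-1.67) were lower. Cells with Foxp3 UMIs were left out of both classes, and of 6 tested regulatory T cell genes 3, Ikzf2, Ctla4 and Tnfrsf4, were lower and 2, Il2ra and Tnfrsf18, higher in Cxcr6 T cells. The part of regulatory T cells without a Foxp3 UMI was not tested. Of 17 tested genes of the SIK, CRTC and CREB list 3 were higher and 1 lower, and Crem itself was not called (0.27, adjusted p = 0.759), nor were Sik1 (-0.13), Sik2 (-0.34) and Sik3 (0.10). Crem was detected in 31, Sik1 in 41, Sik2 in 20 and Sik3 in 27 of the 198 cells. None of 13 type I interferon genes and none of 12 cell cycle genes passed in edgeR or DESeq2, with 1 of each list at an unadjusted p under 0.05 in edgeR. Of all genes tested in edgeR 7.53% passed. In simulated counts of this design, 70% of 2-fold and 95% of 4-fold changes were recovered. The simulated mice shared the same expression profile and a spread set by level alone, so recovery in these data may be lower.

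**Figure D2:**
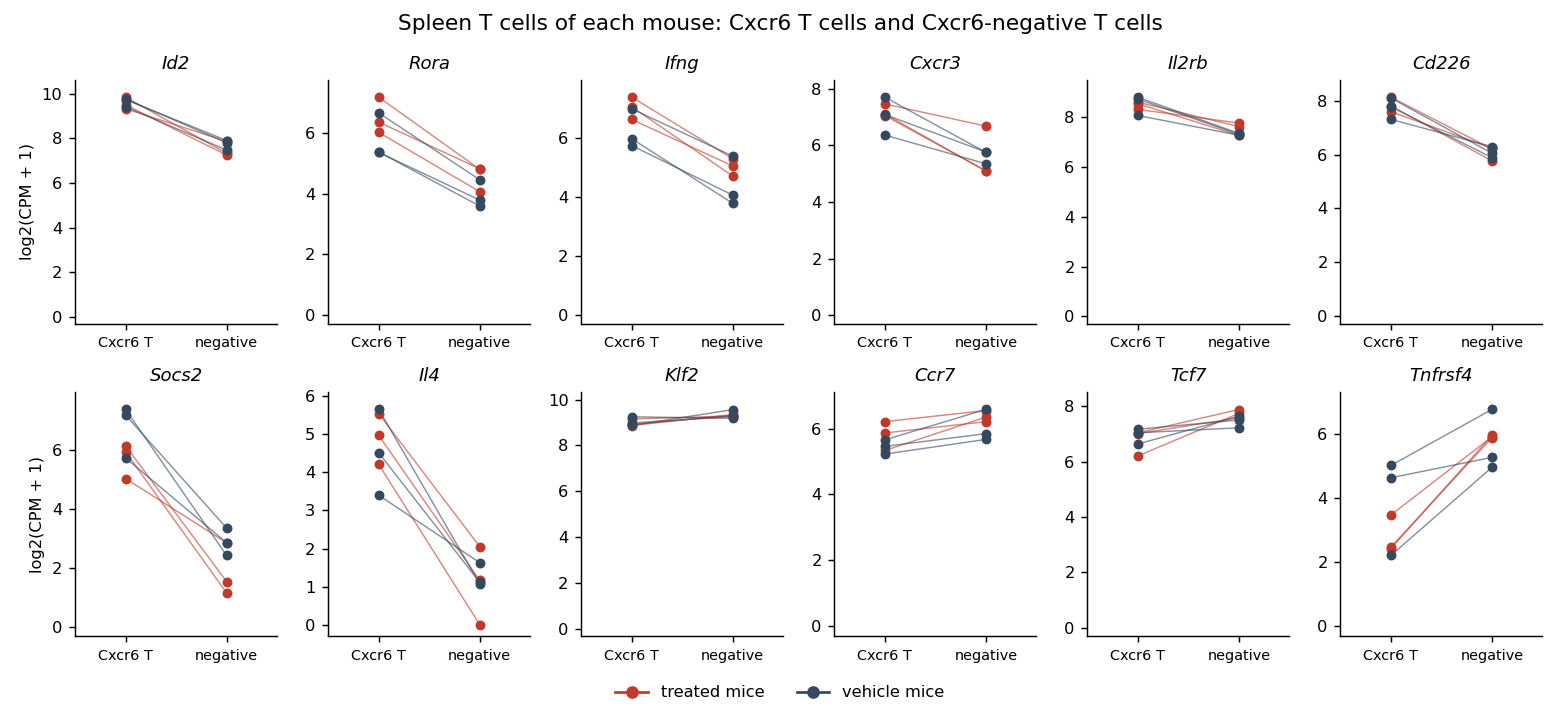
Levels of 12 genes as log2(CPM + 1), with a line per mouse joining its Cxcr6 T cells (left) to its Cxcr6-negative T cells (right), treated mice in red and vehicle mice in dark blue. Id2, Ifng, Cxcr3 and Socs2 are higher in Cxcr6 T cells and Tcf7 and Tnfrsf4 lower, with log2 fold changes between -2.24 and 4.07.

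The 99 neither cells and the 59 CD8 cells were the largest subsets, and a comparison of them within each mouse was added after the data were seen. It used at least 5 cells of both subsets per mouse, since 2 mice alone had 10 of both. Of 1640 genes tested, 75 (4.57%) were higher and 100 (6.1%) lower in neither cells, 175 (10.7%) in all. In purer T cells 72 (4.83%) of 1490 genes were higher and 81 (5.44%) lower, 60 and 78 of them shared with the first counts. The subsets differ in Cd8a and Cd8b1 by their definition.

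Naive and central memory genes were lower in neither cells than in CD8 cells. Dapl1, a marker of naive and central memory CD8 T cells in mice, was at 0 to 20.1 CPM (median 0) in neither cells, against 109 to 363 CPM (median 256) in CD8 cells, with a log2 fold change of -5.34 ± 0.46 (SE), adjusted p = 2.35e-10. Dapl1 had 4 UMIs in all neither cells, against 122 in CD8 cells, so its fold is imprecise. Tcf7 was at 34.2 to 147 CPM (median 63.3) in neither cells, against 154 to 306 CPM (median 235) in CD8 cells (log2 fold change -1.89 ± 0.32 (SE), adjusted p = 0.000152), lower in neither cells without overlap of the ranges. Ccr7 (-2.79), Klf2 (-0.69) and S1pr1 (-1.63), the egress receptor, were lower too. In all, 6 of 10 tested genes of the naive and recirculation list were lower in neither cells and 1 was higher, Il7r (0.99), with a median of -1.16, against -0.01 over all genes. Actn1 (-3.65), the cystatin gene Cst7 (-1.82), Vim (-1.80) and Itga4 (-1.73) were further lower genes.

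By edgeR, 5 of 9 tested type 1 effector genes, besides Id2 and Rgs1, were higher in neither cells. Id2 was at 917 to 1209 CPM (median 1076) in neither cells, against 47.6 to 470.0 CPM (median 195) in CD8 cells (log2 fold change 2.12 ± 0.34 (SE), adjusted p = 0.00255), and Ifng at 73.3 to 277 CPM (median 137) in neither cells, against 0 to 74.8 CPM (median 48.0) in CD8 cells (1.56 ± 0.36 (SE), adjusted p = 0.00367). Rgs1, which dampens chemokine receptor signalling, was at 73.3 to 601 CPM (median 351) in neither cells, against 0 to 78.7 CPM (median 24.6) in CD8 cells, with a log2 fold change of 2.99 ± 0.36 (SE), adjusted p = 9.73e-07. Type 1 effector genes were higher in 5 of 9 tested and lower in 0 by edgeR, among them Cxcr3 (1.06), Il2rb (1.41) and Tnf (1.74). At an unadjusted p under 0.05 in edgeR 7 of the 9 were higher and 0 lower, but by DESeq2 only 1 and 0. Of 10 cytotoxic genes 1 was higher, Klrk1, and 1 lower, Cst7. Of 9 innate-like genes 0 passed in edgeR, 3 were at an unadjusted p under 0.05, and 1 passed in DESeq2. All 3 tested genes of the type 17 list, Maf (2.38), Tmem176a and Tmem176b (2.98), were higher, but the cytokine Il17a was detected in 1 of 198 cells. Rora (2.54), the activating receptor Klrk1 (2.14) and Socs2 (3.69) were also higher. Genes with 2 or 3 UMIs in CD8 cells are given as ratios of CPM with exact 95% intervals that cover counting error only. Ckb, the brain-type creatine kinase, had 87 UMIs in neither cells and 2 in CD8 cells, a ratio of 33.2 (8.93 to 279). The ratio was 17.3 (5.68 to 86.1) for Trdc, with 68 and 3 UMIs, and 14.3 (4.64 to 71.2) for Tcrg-C4, with 56 and 3 UMIs; Tcrg-C2 had 42 and 2 UMIs. All 4 tested genes of the gamma delta list were thus higher in neither cells.

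**Figure D3:**
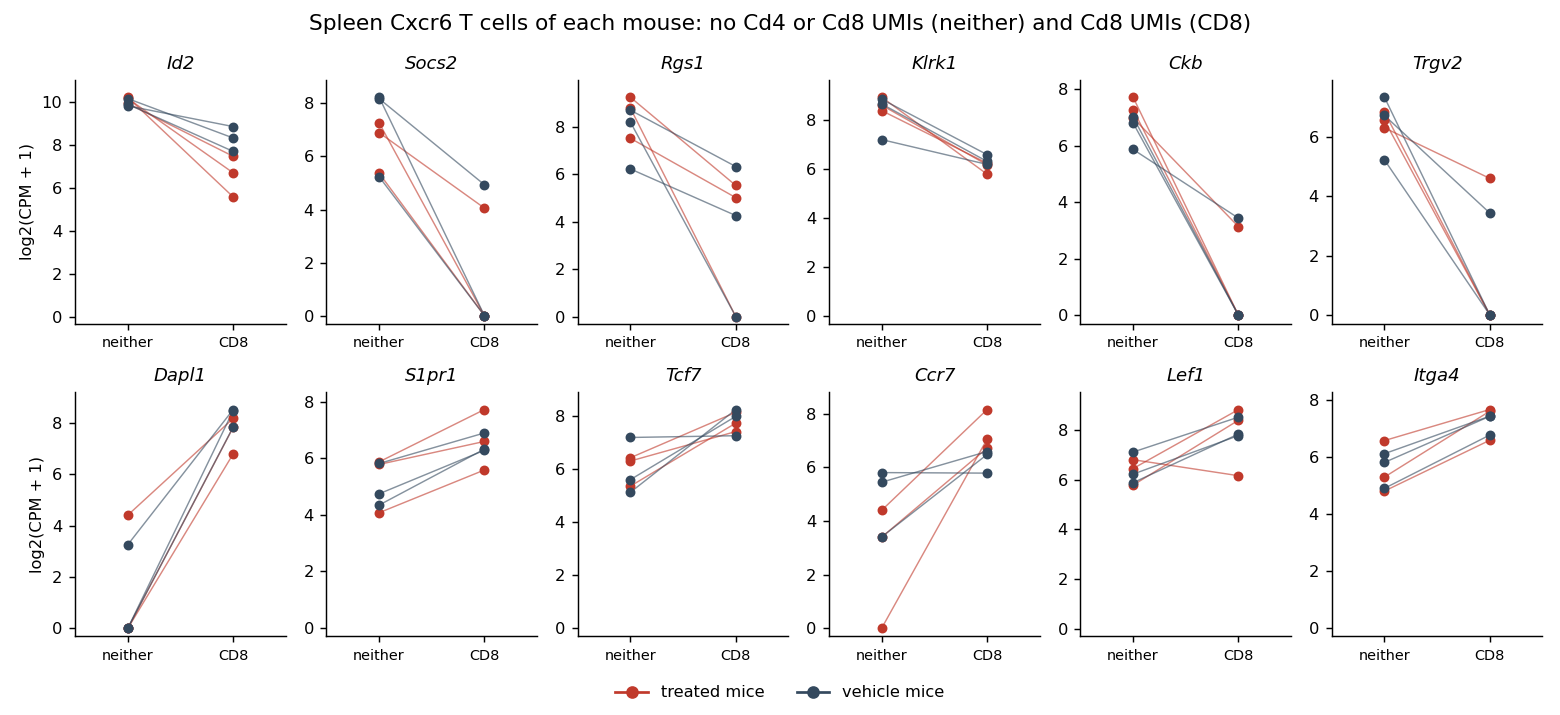
Levels of 12 genes as log2(CPM + 1), with a line per mouse joining its Cxcr6 T cells with neither coreceptor transcript (left) to its CD8 Cxcr6 T cells (right), treated mice in red and vehicle mice in dark blue. Id2 and Rgs1 are higher and Tcf7 and Dapl1 lower in neither cells, with log2 fold changes of 2.12, 2.99, -1.89 and -5.34.

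Klrb1c, Il4 and Ckb were each detected in a larger share of neither cells than of CD4 or CD8 cells. Klrb1c, which encodes NK1.1 in B6 mice, was detected in 59 of 99 neither cells, 13 of 38 CD4 cells and 6 of 59 CD8 cells, and in 16 of 26 Zbtb16 cells and 3 of 16 Trdc cells. Against Cxcr6-negative T cells as a whole it did not pass (log2 fold change 1.13 ± 0.39 (SE), adjusted p = 0.198), and those cells held more of the NK genes Ncr1 and Eomes. Il4 was detected in 24 of 99 neither cells, 3 of 38 CD4 cells and 1 of 59 CD8 cells, and Ckb in 51, 9 and 2. Trav11, the variable segment used by the invariant receptor of mouse natural killer T cells, was detected in 6 of 198 cells, 5 of them neither cells; a 3' library reads few variable segments. Id2 was detected in 26 of 26 Zbtb16 cells and 9 of 16 Trdc cells, Socs2 in 8 and 0, and Il4 in 5 and 0. Median depth was 7271 UMIs in the Zbtb16 cells and 6398.5 UMIs in the Trdc cells. These are counts of cells pooled over mice, with no test. More of the neither cells came from treated mice, and more of the CD4 and CD8 cells from vehicle mice. Subset and arm are thus mixed in these counts.

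CD4 cells of the class could be set against its CD8 cells only with at least 5 cells of each per mouse, since 1 mouse alone had the planned minimum of 10. Over 5 mice and 848 genes, 11 (1.3%) were higher and 19 (2.24%) lower in CD4 cells, 30 (3.54%) in all. Id2 (log2 fold change 1.86 ± 0.28, SE; adjusted p = 0.000173), Rora (3.10), Ly6a (2.09), Lmo4 (2.43), S100a4 (2.43) and the costimulatory receptor Cd28 (1.89) were higher. Lef1 (-1.67), Tcf7 (-1.57) and the NK receptor chain Klrd1 (-1.42) were lower. Dapl1, with 0 UMIs in CD4 cells and 122 in CD8 cells, and the granzyme gene Gzma, with 3 and 88, were lower too. The CD8 cells are the same as in the comparison with neither cells, so the 2 comparisons are not independent; for neither cells over CD8 cells, Id2 was at 2.12, Rora at 2.54 and Tcf7 at -1.89 on the log2 scale.

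YKL-05-099 was compared with vehicle within Cxcr6 T cells, with 3 mice in each arm and 1 sum of UMIs per mouse. A few heat shock and proliferation genes were higher in treated mice, and a chemokine and many ribosomal protein genes lower, all relative to vehicle mice. Of 2485 genes tested in edgeR, 15 (0.604%) were higher and 51 (2.05%) lower at an adjusted p under 0.05, 66 (2.66%) in all. In purer T cells, 16 (0.637%) of 2513 were higher and 46 (1.83%) lower, 15 and 42 of them shared with the first counts. The calls depended on vehicle mouse 2, without which 24 genes were called, 23 of the 66 among them. Of the 24 genes chosen to be named here that were called, 6 stayed called with each mouse left out in turn, Hspa1b, Stmn1, Pclaf, Ccl4, Rbm3 and Rpl12, and 18 were lost without at least 1 mouse.

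Hspa1b, Hspa1a and Hspa8 rose in the treated mice. Hspa1b, an inducible HSP70, was at 1977, 1844 and 1718 CPM in treated mice 2, 3 and 4, against 971, 1125 and 922 CPM in vehicle mice 1, 2 and 3. Each treated mouse was above each vehicle mouse, and the log2 fold change was 0.76 ± 0.11 (SE), adjusted p = 0.000205. Hspa1a, its near-identical neighbour, between which reads may be split, was at 1679, 1228 and 1039 CPM in treated mice 2, 3 and 4, against 773, 776 and 707 CPM in vehicle mice 1, 2 and 3 (0.69 ± 0.14 (SE), adjusted p = 0.00335). Hspa8, the constitutive HSP70, was at 1312, 1995 and 1603 CPM in treated mice 2, 3 and 4, against 1129, 1099.8 and 989 CPM in vehicle mice 1, 2 and 3 (0.50 ± 0.13 (SE), adjusted p = 0.0221). These were 3 of 10 tested genes of the heat shock list, the others not passing, with a list median of 0.47, against -0.01 over all genes. The HSP70 cochaperone Dnaja4 (1.53) and Stip1 (1.33), the linker of HSP70 and HSP90, were higher as well. Hspa1b stayed called in cells with at most 5% mitochondrial UMIs (adjusted p = 0.0158) and with at least 2 Cxcr6 UMIs (adjusted p = 0.000249), but Hspa1a (adjusted p = 0.255 and 0.309) and Hspa8 (0.363 and 0.448) did not. Hspa1a was not called without treated mouse 2 (0.48, adjusted p = 0.0676), and Hspa8 not without treated mouse 3 (0.31, adjusted p = 0.434), vehicle mouse 1 or vehicle mouse 2. Hspa1a was also higher in neither than in CD8 cells (0.67, adjusted p = 0.0274). In Cxcr6-negative T cells of the same mice, Hspa1b was at 999.8, 1353 and 1391 CPM in treated mice 2, 3 and 4, against 735, 743 and 718 CPM in vehicle mice 1, 2 and 3, and was called there too (log2 fold change 0.71 ± 0.12 (SE), adjusted p = 0.0256), though not in purer ones (0.42, adjusted p = 0.406).

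Stmn1, Pclaf and Dnmt1, which go with cell division, were higher in treated mice. Stmn1, a tubulin regulator abundant in cycling cells, was at 105, 68.5 and 165 CPM in treated mice 2, 3 and 4, against 8.99, 32.8 and 9.56 CPM in vehicle mice 1, 2 and 3. The treated mice were all above the vehicle mice, with a log2 fold change of 2.52 ± 0.42 (SE), adjusted p = 0.000902. Pclaf, a PCNA-binding factor of DNA synthesis, had 54 UMIs in treated and 1 UMI in vehicle Cxcr6 T cells, a ratio of 51.3 (exact 95% interval 8.82 to 2062, counting error only). Dnmt1, the maintenance DNA methyltransferase, was higher by 1.60 ± 0.38 (SE), adjusted p = 0.0152 on the log2 scale, and was not called without treated mouse 3 (1.44, adjusted p = 0.148) or vehicle mouse 2 (1.43, adjusted p = 0.139). Of the 13 cell cycle genes only 3 were abundant enough to be tested, and Stmn1 alone passed. The summed level of the 13 was 890 to 1664 CPM in treated mice and 532 to 688 CPM in vehicle mice. Cells with a UMI of Mki67 or Top2a, which mark division, numbered 2, 2 and 2 in treated mice 2, 3 and 4, against 1, 1 and 0 in vehicle mice 1, 2 and 3, so the gene sums rest on few cells. A single treated cell gave 36 of the 88 treated Stmn1 UMIs, and the 54 Pclaf UMIs came from 8 of 105 treated cells.

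Few genes of the effector and trafficking lists passed, where 2.66% of all genes tested did. Of 10 tested cytotoxic genes 1 was lower, Ccl4, of 10 type 1 effector genes 1 was lower, Il18rap, of 11 genes of integrins and egress 1 was higher, Itgb1, and of 9 innate-like genes 1 was higher, Cd160, and 1 lower, Plac8. Of 5 chemokine receptor genes 0 passed in edgeR or DESeq2, and 0 had an unadjusted p under 0.05. Ccl4, a chemokine of activated T and NK cells, was at 13.1, 41.1 and 30.4 CPM in treated mice 2, 3 and 4, against 117, 98.3 and 100.3 CPM in vehicle mice 1, 2 and 3, without overlap, and its log2 fold change was -1.99 ± 0.34 (SE), adjusted p = 0.000732. It was detected in 9 of 105 treated cells and 15 of 93 vehicle cells. Itgb1, the integrin beta 1 chain, was at 315, 196 and 172 CPM in treated mice 2, 3 and 4, against 108, 80.1 and 119 CPM in vehicle mice 1, 2 and 3 (1.04 ± 0.24 (SE), adjusted p = 0.0108). It was not called without treated mouse 2 (0.74, adjusted p = 0.197) or vehicle mouse 2 (0.86, adjusted p = 0.141). Il18rap, the interleukin 18 receptor chain, was at 43.7, 27.4 and 33.7 CPM in treated mice 2, 3 and 4, against 126, 76.5 and 52.6 CPM in vehicle mice 1, 2 and 3 (-1.38 ± 0.35 (SE), adjusted p = 0.0221), and was not called without treated mouse 3 or 4 or vehicle mouse 1 or 2 (adjusted p = 0.0657 to 0.256). Ifng did not pass (0.60, adjusted p = 0.458). Cd160 (0.88), a receptor of innate-like and effector T cells, and Cd7 (1.10) were higher. Socs2 (-1.27), Plac8, Tmem176b (-1.34) of the type 17 list, Ankrd10 (-1.52) and Smim4 (-1.35) were lower. Mgst2 was lower by this fit (-1.30) but not called in purer T cells (adjusted p = 0.27). The neither share was 59.3 ± 11.9% in treated mice and 39.2 ± 15.0% in vehicle mice (SD, n = 3 each), and the part of subset composition in these results was not tested.

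No gene of the SIK pathway list that was abundant enough to be tested passed. Of all 2485 genes tested 2.66% did, so counts of 0 in lists this short lie near the share over all genes. None of the 9 tested genes of the SIK, CRTC and CREB list was called by edgeR, nor any of 12 immediate early genes. At an unadjusted p under 0.05 these were 1 and 0 genes, and by DESeq2 0 and 0, and the list medians were 0.20 and 0.09, against -0.01 over all genes. Crem, Sik1, Sik2 and Sik3 had 35, 55, 20 and 28 UMIs in the 198 Cxcr6 T cells of both arms. No treatment value is given for these genes, so the counts above do not show that they were unchanged. Of 9 tested type I interferon genes 1 was higher, Ifi27l2a (0.69 ± 0.16 (SE), adjusted p = 0.0111). It was not called without treated mouse 2 (0.59, adjusted p = 0.0746) or vehicle mouse 2 (0.60, adjusted p = 0.139). In simulated counts of this design, 67% of 2-fold and 97% of 4-fold changes were recovered, so that smaller changes of single genes would often be missed. The simulated mice shared the same expression profile and a spread set by level alone, without single cells that give many UMIs. Recovery in these data may therefore be lower.

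**Figure D4:**
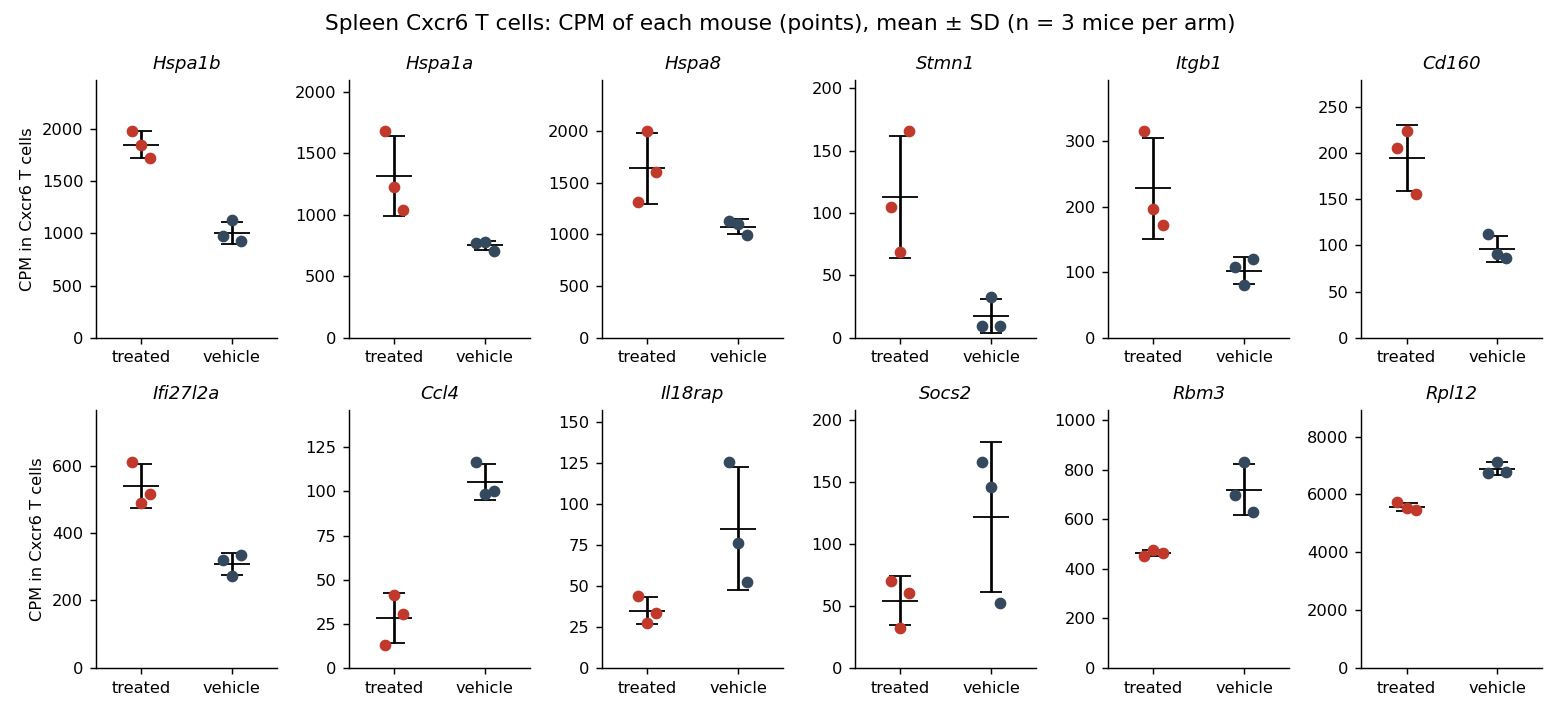
CPM of 12 genes in the Cxcr6 T cells of treated mice (left) and vehicle mice (right), with 1 point per mouse and the mean ± SD (n = 3). Hspa1b, Stmn1 and Itgb1 are higher and Ccl4 and Rpl12 lower in treated mice, with log2 fold changes of 0.76, 2.52, 1.04, -1.99 and -0.42.

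Ribosomal protein genes, a group picked out after the values were seen, made up most of the lower calls. Of 80 tested, 38 were lower and 0 higher in treated mice, and 79 had a log2 fold change below 0, with a median of -0.25 and a range of -0.42 to 0.10. Rpl12, a protein of the large subunit, was at 5729, 5533 and 5467 CPM in treated mice 2, 3 and 4, against 6744, 7138 and 6775 CPM in vehicle mice 1, 2 and 3 (-0.42 ± 0.06 (SE), adjusted p = 0.000205), and Rps25, of the small subunit, fell by 0.40 on the log2 scale. Together, ribosomal protein genes took 34.0, 33.7 and 33.5% of UMIs in treated mice 2, 3 and 4, against 37.2, 38.5 and 35.8% in vehicle mice 1, 2 and 3, without overlap. With DESeq2 size factors in place of edgeR's, 36 were lower and 78 below 0. The number lower was 11 without vehicle mouse 2, 10 of 79 in cells with at most 5% mitochondrial UMIs, and 0 of 79 in cells with at least 2 Cxcr6 UMIs, where 77 stayed below 0. In Cxcr6-negative T cells 0 of 80 were lower, and 42 of 80 in purer ones. Mitochondrial genes took 4.51, 5.10 and 4.86% of UMIs in treated mice 2, 3 and 4, against 4.54, 4.91 and 4.53% in vehicle mice 1, 2 and 3.

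**Figure D5:**
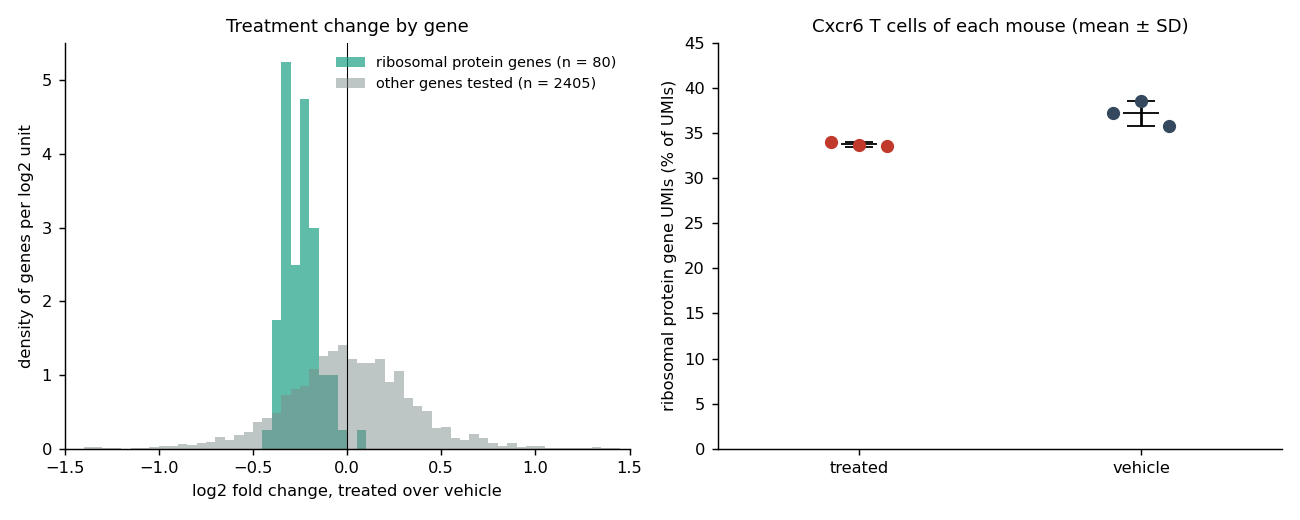
Left, density of the log2 fold change of treated over vehicle mice in Cxcr6 T cells for 80 ribosomal protein genes and 2405 other tested genes, drawn between -1.5 and 1.5; right, percent of UMIs from ribosomal protein genes, treated left of vehicle, with 1 point per mouse and the mean ± SD (n = 3). The ribosomal genes have a median of -0.25, and their share of UMIs is 33.5 to 34.0% in treated mice and 35.8 to 38.5% in vehicle mice.

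Whether treatment acted differently with and without Cxcr6 was tested as a difference of the 2 treatment effects in 1 fit over both classes. Of 5495 genes, 12 (0.218%) had a higher effect in Cxcr6 T cells and 3 (0.0546%) a lower one. The 12 included the division genes Stmn1, Pclaf, Top2a, Birc5 and Ccnb2, the neutrophil precursor genes Elane and Prtn3, and Il1b. The 3 were the chemokines Ccl4 and Ccl5 and the interferon gene Ifi27l2a. In all, 15 (0.273%) were called. In purer T cells 2 (0.0384%) of 5205 had a higher and 2 (0.0384%) a lower effect, and 1 of the 15, Ifi27l2a, was among them. The higher were Trdc (2.21, edgeR adjusted p = 0.0180) and Gprin3 (4.48, adjusted p = 0.0482). The lower were Trbc1 (-0.79, adjusted p = 0.0482) and Ifi27l2a (-0.85, adjusted p = 0.0358). With at least 5 CD3 UMIs alone, 0 passed in edgeR. Other cells within the Cxcr6-negative class moved with the arms, its 9 NK markers summing to 770 to 935 CPM in treated mice and 170 to 376 CPM in vehicle mice, and its 10 myeloid markers to 1682 to 23104 CPM and 13928 to 62606 CPM. Within Cxcr6-negative T cells 6 genes (0.0895%) of 6704 were higher and 4 (0.0597%) lower in treated mice, 10 (0.149%) in all, and in purer ones 12 (0.241%) and 69 (1.39%) of 4978.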

How the data were processed

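Gene and hashtag UMI counts of 2 droplet libraries (10x Genomics 3' v3.1 chemistry, per the labels' protocols) were taken as deposited, raw and whole-numbered per gene and barcode. They were made with Cell Ranger 6.1.1 and build mm10, per the submitters' processing notes; further filters are not given in the sources used here. All columns that hold per-sample values were used (0 left out). Mice were assigned from the deposited hashtag notes, which name arm, mouse and tissue. A cell was used with at least 200 genes, at least 500 gene UMIs, at most 10% mitochondrial UMIs, and at least 20 hashtag UMIs with 80% from 1 hashtag. No doublet caller was run. The members and gene lists were chosen with earlier results of these data known.

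The mouse was the replicate. UMI counts were summed per mouse and class and tested with edgeR 4.0.16 in R 4.3.3 (TMM scaling, filterByExpr, robust quasi-likelihood test, Benjamini-Hochberg adjustment over all genes tested, threshold 0.05), with the mouse as a block between classes. Genes of the gate were left out of the counts of calls. Shares were compared by exact two-sided permutation tests (scipy 1.17.1, Python 3.11.15), with exact binomial intervals where single shares are given; intervals cover counting error only, since they hold no spread between mice. CPM values are UMIs per 1000000 UMIs of the summed cells. The sums held 209286 to 296322 UMIs per mouse in Cxcr6 T cells, where 1 UMI is worth a few CPM, so genes of low level are imprecise. Named genes were the 12 with the largest change in each direction among calls whose average logCPM reached 5 and whose direction was shared by every mouse, up to 4 called members per list by p, and a set of T cell and SIK pathway genes always given; further list members, Klrb1c, Stip1, Socs2 under treatment, and the ribosomal group were named after their values were seen. A few genes, and 1 planned choice of comparison cells that needs one of them, are not reported here. The scripts were tested on simulated counts. Alternatives, among them DESeq2 1.42.0, are given in the closing section.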

Additional observations from a re-analysis of the deposited data

Results flagged for a closer look

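In 15 genes the effect of YKL-05-099 differed between Cxcr6 T cells and Cxcr6-negative T cells of the same mice, by edgeR's test of the difference itself; each value is the log2 effect in Cxcr6 T cells minus that in Cxcr6-negative T cells, with adjusted p between 2.19e-09 and 0.0469. Genes of dividing cells had the higher effect in Cxcr6 T cells. Hmgn2 differed by 1.73, Hmgb2 by 1.60, Stmn1 by 3.80, Top2a by 4.23, Spc24 by 4.65, Birc5 by 5.31, Hist1h2ab by 6.45, Pclaf by 7.62 and Ccnb2 by 8.63. Treated and vehicle Cxcr6 T cells held 39 and 3 UMIs of Top2a, 23 and 3 of Spc24, 23 and 2 of Birc5, 18 and 0 of Hist1h2ab and 14 and 0 of Ccnb2, so these fitted differences are imprecise and no bounds. Single treated cells gave 24 of the 39 Top2a, 11 of the 23 Birc5 and 11 of the 18 Hist1h2ab UMIs. Stmn1 was called higher in treated Cxcr6 T cells, while in Cxcr6-negative T cells it was at 67.0, 40.8 and 84.1 CPM in treated mice 2, 3 and 4, against 83.8, 211 and 141 CPM in vehicle mice 1, 2 and 3.

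Genes of myeloid cells formed another group. Il1b differed by 4.27, Elane by 6.73 and Prtn3 by 10.7. They rested on 27 UMIs in treated and 1 in vehicle Cxcr6 T cells for Il1b, 4 and 1 for Elane, and 4 and 0 for Prtn3. A single treated cell gave 18 of the 27 Il1b UMIs.

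Lower effects in Cxcr6 T cells were found for Ccl4 (-2.50), Ccl5 (-1.62) and Ifi27l2a (-1.03). Ccl5 had 2382 UMIs in treated and 4933 in vehicle Cxcr6 T cells, and 1 cell of vehicle mouse 3 gave 1167 of that mouse's 2302. Ifi27l2a was the 1 gene of the 15 also called in purer T cells, where the difference was -0.85. The myeloid and NK markers that moved with the arms in Cxcr6-negative T cells are given beside this comparison above; their part was not tested.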

How the results depend on the processing

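The number of genes called for Cxcr6 T over Cxcr6-negative T cells (414) was 175 in cells with at most 5% mitochondrial UMIs, 768 with up to 2 Cd79a UMIs allowed, 207 by DESeq2, 209 with no replicate block, 657 against Cd44+ Ccr7- cells and 201 after thinning, and 301 to 404 with 1 mouse left out. Of the 201 after thinning, 63 were among the 414. For treated over vehicle mice (66) it was 9 with at least 2 Cxcr6 UMIs, 12 with at most 5% mitochondrial UMIs, 19 with a replicate block on the mouse number, and 24 to 62 with 1 mouse left out, 24 being without vehicle mouse 2. Treated and vehicle mice share only the numbers 2 and 3, which the labels do not tie to any pairing; the block on those numbers gave a difference in the share of T cells of 5.30 points (exact permutation p = 0.5), and each class or tissue was otherwise paired by animal. For the difference of treatment effects (15) it was 3 with at least 2 and 0 with at least 5 CD3 UMIs, 4 with at most 5% mitochondrial UMIs, 8 with at most 1% UMIs of other lineages, 4 in purer T cells, 38 with no low-count filter, 5 by DESeq2, and 10 to 40 with 1 mouse left out, 40 being without treated mouse 4. For neither over CD8 cells (175) it was 39 with at most 5% mitochondrial UMIs, 306 with up to 2 Cd79a UMIs, 100 by DESeq2, and 108 to 201 with 1 mouse left out, 108 being without treated mouse 2. These settings also change the number of cells or genes; beyond that the cause was not tested.

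The spleen minus blood share was 12.9 points with at least 2 CD3 UMIs and 17.2 with at most 5% mitochondrial UMIs, both at exact permutation p = 0.0625, and 10.7 to 15.0 with 1 mouse left out, where 0.0625 is the smallest p 5 pairs allow. Treated minus vehicle shares of kept cells (-0.652) turned to 0.205 with at least 2 Cxcr6 UMIs, 0.568 with at most 5% mitochondrial UMIs, 1.26 with at most 1% UMIs of other lineages and 1.28 in purer T cells. The Trdc share turned to -2.29 with at most 5% mitochondrial UMIs. The Zbtb16 share (-1.01) turned to 1.60 with at most 5% mitochondrial UMIs, 3.23 with up to 2 Cd79a UMIs, 2.32 without treated mouse 2, 0.000941 without treated mouse 4 and 1.60 without vehicle mouse 1. With 1 mouse left out, treated minus vehicle ranges were 4.03 to 8.09 for the share of T cells, -1.13 to -0.133 of kept cells, -10.6 to -5.65 for CD4, -21.9 to -6.86 for CD8, 1.89 to 3.83 for Trdc and -5.34 to 2.32 for Zbtb16; the neither share of Cxcr6 T minus Cxcr6-negative T cells (9.15) was 4.76 to 12.7, and 2.40 with at most 5% mitochondrial UMIs, 16.2 after thinning to 2000 UMIs and 17.4 in purer T cells. The treated minus vehicle share of T cells (5.59) was 8.97 with at most 5% mitochondrial UMIs and 1.26 among T cells with a Cd4 or Cd8 UMI. With at least 2 Cxcr6 UMIs the CD4 share (-7.93) was -16.3, the CD8 share (-14.1) -8.75 and the Zbtb16 share -6.60. With up to 2 Cd79a UMIs the CD4 share was -1.005, the Trdc share (2.98) 5.84 and the share of kept cells -1.27. For the 79 called named genes of Cxcr6 T over Cxcr6-negative T cells and the 24 of treated over vehicle mice, alternatives gave 2061 values, of which 1754 kept direction and side of the threshold, 302 no longer passed and 5 changed sign: Cd6 (-0.52) and Zfp36l2 (-0.0086) after thinning, and Ccr7 (6.54), Dusp1 (-0.037) and Tcf7 (0.24) against Cd44+ Ccr7- cells, a class defined without Ccr7 and added after the data were seen. In a further 157 cases the gene was not tested under the alternative, and named genes of the other comparisons were not followed. Subset comparisons used at least 5 cells per mouse; CD4 over CD8 cells was not run at the planned minimum of 10.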
